A study of Mus musculus with 14 samples.

Results

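The cadherins and regulators of epithelial-mesenchymal transition (EMT) examined here were Cdh1, Cdh2, Cdh3, Fn1, Vim, Snai1, Snai2, Twist1, Zeb1 and Zeb2, 10 genes taken by symbol from the 54332 rows of the time-course expression table. The table gives TPM, a transcript level scaled to transcript length and to a total of 1000000 per library, in 10 RNA-seq libraries. The libraries came from epidermal stem cells (EpdSCs) sorted from back skin of CD1 mice that carry K14rtTA, which makes the doxycycline (DOX)-dependent activator under the Krt14 promoter of basal keratinocytes, and TRE-myc-Sox9, a MYC-tagged Sox9 transgene. All groups carried both transgenes. D0 was taken at postnatal day 21 before DOX, W1 at day 28, W2 at day 35 and W6 at day 63, with 2 replicates at each time.

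The 2 W12 libraries came from neonatal skin grafted onto immunocompromised female hosts, so that 12 weeks of SOX9 and the graft cannot be told apart, and no age-matched skin without the transgene was analysed here. From D0 to W6 the age of the mice rose together with the weeks on DOX. The sort kept cells high in CD49f and Ly6A and without CD34, and gated out CD31, CD45, CD117 and CD140a. In bulk RNA of this kind, fewer cells of a type and less RNA per cell cannot be told apart.

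Classical cadherins join neighbouring epithelial cells through their extracellular domains and are tied to actin by catenins. In EMT, factors of the Snail, Twist and Zeb families repress epithelial genes such as Cdh1 by binding E-box sequences, while the intermediate filament protein vimentin (Vim), fibronectin (Fn1) and N-cadherin (Cdh2) often rise. In skin, E-cadherin (Cdh1) is found throughout the living epidermis and P-cadherin (Cdh3) mainly in its basal layer and in the hair follicle, and Snai2 is a Snail factor of basal keratinocytes.

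The transgene transcript MYC-SOX9 was at 89.6 and 45.6 TPM in the D0 libraries, before DOX. It reached 3387 and 3414 TPM at W1, its highest levels, and then lay at 1892 and 1469 TPM (W2), 1108 and 859 TPM (W6) and 606 and 903 TPM (W12). Krt14 was at or above 19997 TPM in every library. Among the 6 basal keratinocyte markers, Krt14 alone had a higher mean TPM at W12 than at D0 (1.197 times). The W12 mean was 0.517 times that of D0 for Krt5 and 0.685 times for Itga6. It was 0.297 times for Itgb4, 0.287 times for Col17a1 and 0.259 times for Trp63. For Cdh1 and Cdh3 it was 0.26 and 0.374 times. Whether the cadherin levels followed those of the basal markers was not tested. The labels give male donors, but the library labelled D0 replicate 2 had Xist, a transcript of female cells, at 4.61 TPM and a summed level of 4 Y-linked genes of 0.092 TPM. The main results against D0 are therefore also given without it. D0 is then 1 library, so a call lost in that fit can reflect lower precision as well as a changed level. At W12 Xist was at 5.51 and 3.50 TPM, and the 4 Y-linked genes summed to 41.1 and 51.1 TPM. That sum was 75.9 to 100 TPM in the remaining libraries. The 14 endothelial markers summed to between 1.50 and 8.69 TPM in the 8 libraries from D0 to W6, and to 191 and 481 TPM in W12 replicates 1 and 2.

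Of the 10 members, Cdh1, Cdh3, Vim and Snai2 averaged 1 TPM or more across the 10 libraries, and these 4 entered the test. The same 4 passed when the mean was taken over the 8 libraries from D0 to W6 alone. The other 6 were below this level. Changes are differences of mean log2(TPM + 1), given with their standard error (SE) and with a Benjamini-Hochberg adjusted p over all 13110 genes tested with limma, and "rose" or "fell" marks an adjusted p under 0.05.

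Cdh1 was the most abundant of the members in 9 of the 10 libraries. It was at 274 and 365 TPM at D0, 514 and 440 TPM at W1, 551 and 466 TPM at W2, 229 and 145 TPM at W6, and 77.3 and 89.1 TPM at W12. The 4 libraries of W1 and W2 were higher than those of D0, and the W6 and W12 libraries were lower, with no overlap between D0 and any later time. Its log2 change from D0 was 0.59 (SE 0.24, adjusted p = 0.160) at W1 and 0.68 (SE 0.24, adjusted p = 0.0873) at W2, neither past the threshold. When D0 replicate 2 was left out these were 0.79 (adjusted p = 0.120) and 0.88 (adjusted p = 0.0781). Cdh1 fell at W6, by 0.79 on the log2 scale (SE 0.24, adjusted p = 0.0324), and was 1.71 times lower in mean TPM. That call rests on individual libraries: without D0 replicate 2 the change was -0.59 (adjusted p = 0.175) and without W6 replicate 2 it was -0.47 (adjusted p = 0.162). With the change itself the same, the adjusted p was 0.0502 or 0.0503 when a W1 library was left out of the shared fit, and 0.0526 when a W12 library was. At W12 Cdh1 was 3.84 times lower than at D0, a log2 change of -1.92 (SE 0.24, adjusted p = 0.000454), and -1.71 (adjusted p = 0.00393) without D0 replicate 2.

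Cdh3 lies next to Cdh1 on chromosome 8. In the GRCm38 annotation, Cdh3 spans chr8:106510891-106557297 and Cdh1 chr8:106603351-106670246, both on the plus strand, with 46053 bases between them. Cdh3 was at 40.8 and 53.7 TPM at D0, 60.1 and 51.6 TPM at W1, 66.5 and 59.0 TPM at W2, 38.0 and 36.9 TPM at W6, and 14.6 and 20.8 TPM at W12. The W1 libraries overlapped those of D0, and the W12 libraries were the lowest of the series. Its change from D0 was 0.24 (SE 0.20, adjusted p = 0.496) at W1, 0.41 (adjusted p = 0.203) at W2 and -0.32 (adjusted p = 0.259) at W6. Without D0 replicate 2 these were 0.44 (adjusted p = 0.276), 0.61 (adjusted p = 0.123) and -0.12 (adjusted p = 0.754). Cdh3 fell at W12 by 1.37 on the log2 scale (SE 0.20, adjusted p = 0.00111), or 2.67 times in mean TPM, and by 1.18 (adjusted p = 0.00808) without D0 replicate 2.

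The steps between successive times placed the decline of both cadherins after W2. From W1 to W2, Cdh1 changed by 0.09 (SE 0.24, adjusted p = 0.911) and Cdh3 by 0.17 (SE 0.20, adjusted p = 0.759). From W2 to W6, Cdh1 fell by 1.47 (SE 0.24, adjusted p = 0.00755) and Cdh3 by 0.73 (SE 0.20, adjusted p = 0.0431), the latter close to the threshold and lost under several alternatives. The call for Cdh1 was lost without W2 replicate 1, where the change was -1.35 (adjusted p = 0.0748). From W6 to W12, Cdh1 fell by 1.12 (adjusted p = 0.0136) and Cdh3 by 1.06 (adjusted p = 0.00962). The W6 to W12 calls were lost without W12 replicate 1, where the changes were -1.02 for Cdh1 (adjusted p = 0.103) and -0.82 for Cdh3 (adjusted p = 0.0758). The ratio of Cdh1 to Cdh3 TPM was 6.72 and 6.79 at D0, 8.55 and 8.54 at W1, 8.29 and 7.89 at W2, 6.02 and 3.92 at W6, and 5.29 and 4.29 at W12. The ratio was thus higher in the W1 and W2 libraries than in those of D0, and lower at W6 and W12.

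**Figure D1:**
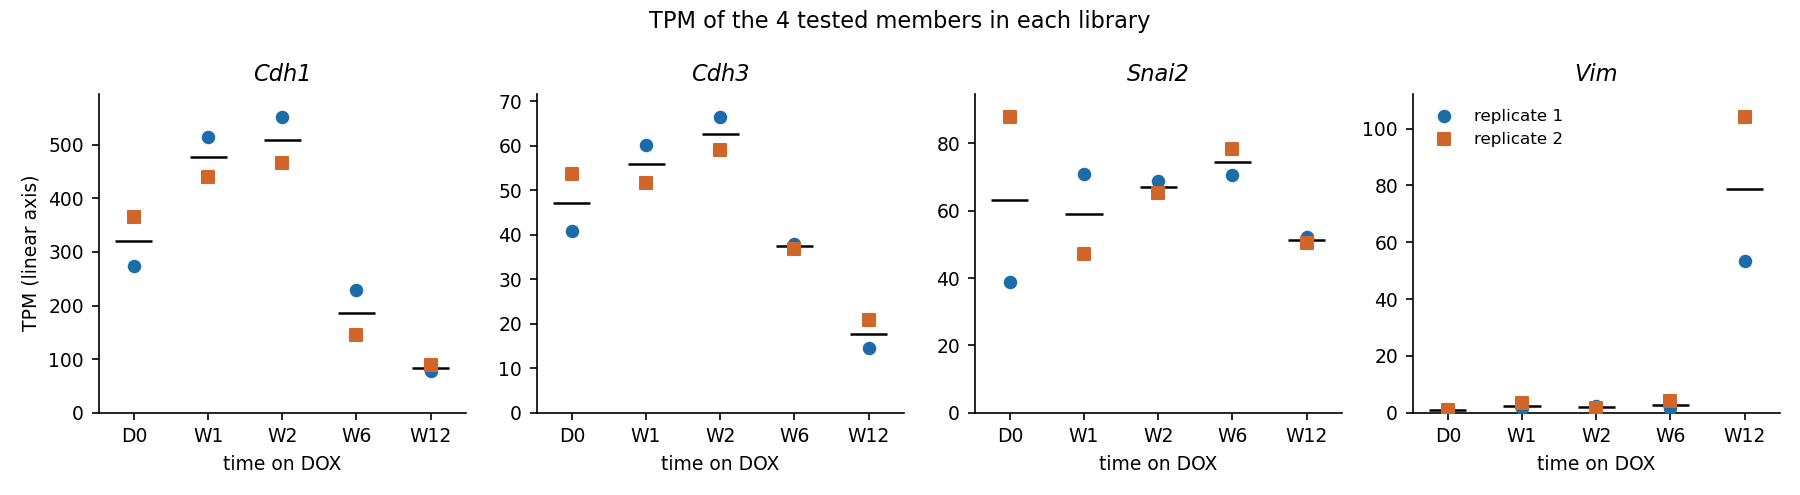
TPM on linear axes from 0 (vertical) against time on DOX (horizontal) for Cdh1, Cdh3, Snai2 and Vim, with circles for replicate 1, squares for replicate 2 and bars at the mean of the 2. Cdh1 and Cdh3 were lowest at W12, Snai2 stayed between 38.8 and 87.8 TPM, and Vim stayed at or below 4.14 TPM until W12, where its libraries were at 53.5 and 104 TPM.

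Vim, on chromosome 2 (chr2:13573927-13582826), was at 0.694 and 0.975 TPM at D0, 1.55 and 3.41 TPM at W1, 2.43 and 1.76 TPM at W2, 1.57 and 4.14 TPM at W6, and 53.5 and 104 TPM at W12. The libraries from W1 to W6 were all above those of D0, but their replicates differed widely, and the W12 libraries stood far above all others. Its change from D0 was 0.87 (SE 0.43, adjusted p = 0.239) at W1, 0.75 (adjusted p = 0.267) at W2 and 0.99 (adjusted p = 0.106) at W6, and 0.99 (adjusted p = 0.324), 0.86 (adjusted p = 0.354) and 1.10 (adjusted p = 0.215) without D0 replicate 2. Vim rose at W12 by 5.37 (SE 0.43, adjusted p = 5.03e-05), with a mean TPM 94.3 times that of D0, and by 5.48 (adjusted p = 0.000699) without D0 replicate 2. From W6 to W12 it rose by 4.38 (adjusted p = 0.000353).

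Fn1 was highest before DOX. It was at 2.75 and 1.69 TPM at D0, 0.291 and 0.307 TPM at W1, 0.180 and 0.147 TPM at W2, 0.147 and 0.342 TPM at W6, and 0.273 and 0.928 TPM at W12. No later library reached the D0 range, and in mean TPM Fn1 was 7.44 times lower at W1, 13.6 times lower at W2, 9.11 times lower at W6 and 3.70 times lower at W12. Its mean of 0.706 TPM kept it out of the main test. In a fit of all 38965 genes with a TPM above 0, the change from D0 was -1.29 (SE 0.28, adjusted p = 0.0955) at W1, -1.45 (adjusted p = 0.0525) at W2, -1.36 (adjusted p = 0.0347) at W6 and -1.02 (adjusted p = 0.0594) at W12, so that Fn1 fell at W6 in that fit, where 7.96% of genes passed. None of these passed without D0 replicate 2, where the W6 change was -1.60 (adjusted p = 0.0545). Cdh2 did not pass 0.216 TPM in any library and was listed at 0 in 3.

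Among the transcription factors, only Snai2 (chr16:14705852-14709385) had a mean above 1 TPM. Snai2 was at 38.8 and 87.8 TPM at D0, 71.0 and 47.2 TPM at W1, 69.0 and 65.4 TPM at W2, 70.7 and 78.2 TPM at W6, and 52.2 and 50.5 TPM at W12. Every later library lay within the range of the 2 D0 libraries, which were the farthest apart. Its change from D0 was -0.01 (SE 0.33, adjusted p = 0.992) at W1, 0.20 (adjusted p = 0.738) at W2, 0.34 (adjusted p = 0.456) at W6 and -0.18 (SE 0.33, adjusted p = 0.685) at W12. The 2 D0 libraries gave opposite values: the W12 change was 0.40 (adjusted p = 0.233) without D0 replicate 2, and -0.76 (adjusted p = 0.0275) without D0 replicate 1. The W6 change was likewise 0.92 (adjusted p = 0.0310) without D0 replicate 2 and -0.24 (adjusted p = 0.441) without D0 replicate 1. A difference in Snai2 of this size was not detectable beyond the spread at D0.

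Zeb1, a zinc-finger repressor, was at 0.0941 and 0 TPM at D0, 0.0169 and 0 TPM at W1, 0.00677 and 0.0547 TPM at W2, 0.0627 and 0.185 TPM at W6, and 1.73 and 4.44 TPM at W12. It was under 1 TPM in all 8 libraries from D0 to W6 and above it in both W12 libraries. In the fit of all genes with a TPM above 0, Zeb1 rose at W12 by 1.88 (SE 0.31, adjusted p = 0.0101), where 13.6% of the 38965 genes passed. Without D0 replicate 2 the change was 1.82 (SE 0.41, adjusted p = 0.0634) and did not pass. Its paralogue Zeb2 stayed between 0.00821 and 0.313 TPM, with a W12 change of 0.09 in that fit (SE 0.14, adjusted p = 0.888).

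Snai1 was listed at 0 in 6 of the 10 libraries and reached at most 0.262 TPM, in W12 replicate 2. Twist1, a basic helix-loop-helix factor, was listed at 0 in 2 and reached at most 0.297 TPM in the same library. In the fit of all genes the W12 change was 0.23 (SE 0.07, adjusted p = 0.0819) for Snai1 and 0.22 (SE 0.08, adjusted p = 0.153) for Twist1, neither past the threshold. TPM values keep no read depth, so how many reads stand behind such low levels is unknown, and a level of 0 says only that the gene is listed at 0. Genes annotated on the opposite strand overlap Cdh2, Fn1, Zeb1 and Zeb2; those with a value were at or below 0.231 TPM in the D0 and W12 libraries.

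**Figure D2:**
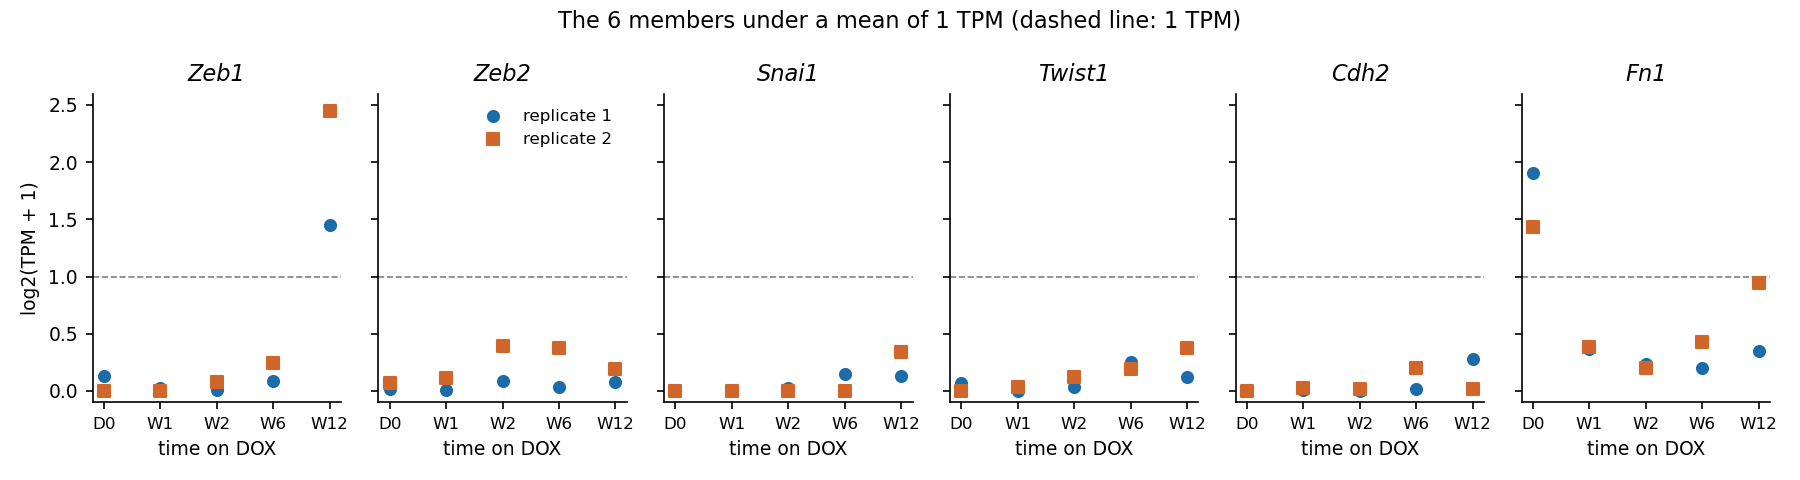
log2(TPM + 1) (vertical, 1 shared axis) against time on DOX (horizontal) for the 6 members below a mean of 1 TPM, with circles for replicate 1, squares for replicate 2 and a dashed line at 1 TPM. Zeb1 was above the line only in the W12 libraries, at 1.73 and 4.44 TPM, and Fn1 only in the D0 libraries, at 2.75 and 1.69 TPM.

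The E-box that Snail and Zeb factors bind was looked for in promoter windows from RefSeq (GRCm38.p6), each of 300 bases, as CACCTG or its reverse complement CAGGTG. Windows were matched for 4 members, Vim, Snai1, Twist1 and Zeb2, and only that of Snai1 held it, while 20.2% of all 32851 windows in the table did. The 250 bases before the Snai1 start (chr2:167537945-167538194, plus strand) are shown because they carry this match, with the E-box in capitals. Its first letter lies 126 bases upstream of the start.
Snai1: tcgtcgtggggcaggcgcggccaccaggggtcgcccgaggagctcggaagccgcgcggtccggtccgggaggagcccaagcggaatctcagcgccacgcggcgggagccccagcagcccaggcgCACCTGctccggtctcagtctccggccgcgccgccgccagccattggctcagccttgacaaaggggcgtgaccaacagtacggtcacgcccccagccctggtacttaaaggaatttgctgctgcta
The match describes the letters of the window, beside a gene that did not pass 0.262 TPM in any library.

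Of the 4 tested members, 0 passed at W1, where 9.89% of all tested genes passed (5.79% higher, 4.1% lower), and 0 at W2, where 15.7% did (9.06% higher, 6.64% lower). At an unadjusted p under 0.05, limma gave 1 member, Cdh1, at each of these times. At least 9.89% (W1) and 15.7% (W2) of all tested genes passed that looser threshold. At W6, 1 member passed (Cdh1, lower) against 32.4% of tested genes, 18.3% higher and 14.1% lower, and without D0 replicate 2 the 1 that passed was Snai2 in place of Cdh1. At W12, 3 passed, Vim higher and Cdh1 and Cdh3 lower, against 43% of tested genes, of which 17.9% were higher and 25.1% lower. The count at W12 was also 3 without D0 replicate 2, and without either W12 library. From W1 to W2 none of the 4 passed in limma, adjusted or at an unadjusted p under 0.05, where 0.114% of tested genes passed. From W2 to W6, 2 passed, both lower, against 16.3% (7.99% higher, 8.31% lower). From W6 to W12, 3 passed, 1 higher and 2 lower, against 20.2% (6.66% higher, 13.5% lower). These comparisons share their D0, W2 or W6 libraries.

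The W12 replicates differed in endothelial RNA, and the ratio between these replicates also differed among the members. All 14 endothelial markers were higher in W12 replicate 2, by 1.43 to 3.04 times with a median of 2.27. Pecam1, which encodes the CD31 that the sort gated out, was at 26.1 and 59.8 TPM in the W12 libraries and at or below 1.14 TPM in every earlier library. Cdh5, the cadherin of endothelial junctions, was at 1.61 and 3.64 TPM at W12, listed at 0 in the 6 libraries from D0 to W2, and at or below 0.0518 TPM at W6. The 6 basal keratinocyte markers had a median ratio of 1.03 (0.937 to 1.62) between the same libraries, and all tested genes a median of 1.07.

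Vim was 1.94 times higher in W12 replicate 2, and Zeb1 2.57 times. The log2 difference was 0.95 for Vim, and 190 of the 13110 tested genes (1.45%) differed by at least as much in that direction. For Zeb1 it was 1.00 (161 genes, 1.23%). Both ratios lay within the range of the endothelial markers. Fn1 was 3.40 times higher, from 0.273 to 0.928 TPM. Snai1, Twist1 and Zeb2 were 2.77, 3.26 and 2.69 times higher, all below 0.3 TPM, where the pseudocount of 1 leaves log2 differences of 0.21, 0.25 and 0.12, and Cdh2 went the other way, from 0.216 to 0.00999 TPM.

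The epithelial cadherins and Snai2 had smaller ratios. Cdh1 was 1.15 times higher in W12 replicate 2, Cdh3 1.42 times, and Snai2 was at 0.967 times its level in replicate 1. Cdh1 and Snai2 lay below the lowest endothelial ratio of 1.43, and Cdh3 lay just under it. With 1 library against 1 there is no test. None of the 10 members passed an absolute log2 difference of 1 between the W12 replicates, where 2.14% of tested genes did, and with a pseudocount of 0.1 in place of 1 the count was 4, where 4.30% of tested genes did. Between the replicates of the other times, 1 member passed at D0 (Snai2), where 6.36% of tested genes did, and 0 at W1 (1.91%), W2 (1.64%) and W6 (8.14%). With the pseudocount of 0.1 these counts were 1 at D0, 1 at W1, 1 at W2 and 4 at W6, beside 11.0%, 4.64%, 3.50% and 13.3% of tested genes, so that W6 gave as many members as W12.

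**Figure D3:**
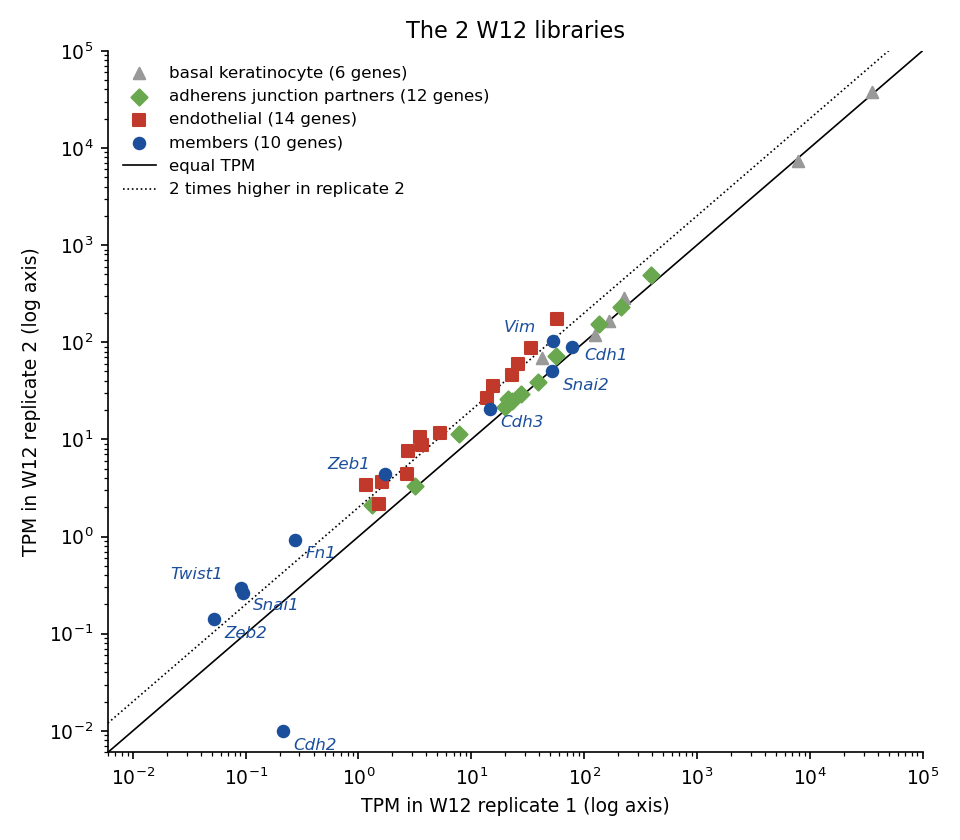
TPM in W12 replicate 2 (vertical) against replicate 1 (horizontal), both on log axes, for the 10 members, 14 endothelial markers, 12 adherens junction partners and 6 basal keratinocyte markers. The solid line marks equal TPM and the dotted line a level 2 times higher in replicate 2: Vim (1.94 times) and Zeb1 (2.57 times) lie among the endothelial markers, and Cdh1 (1.15 times) and Snai2 (0.967 times) near the line of equal TPM.

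Per TPM of summed endothelial markers, Vim was at 0.279 and 0.216 TPM at W12, and at 0.150 to 1.10 TPM in the earlier libraries. Zeb1 was at 0.00904 and 0.00924 TPM per endothelial TPM at W12, and at 0 to 0.0237 TPM in the earlier libraries. Before W12 the endothelial sum was 1.50 to 8.69 TPM, with at most 2 of the 14 markers at 1 TPM or more. Zeb1 was at or below 0.185 TPM there. The earlier ratios thus divide very low values, and they give no firm basis for comparison with W12. Other marker lists at W12 were at 56.4 and 82.8 TPM for 10 fibroblast markers (49.8 to 125 TPM before W12), with Pdgfra, which encodes the CD140a gated out, at 0.188 and 0.0927 TPM. Dcn, a matrix proteoglycan of the same list, was at 13.2 and 27.2 TPM at W12, 2.06 times higher in replicate 2, against 1.44 and 1.63 TPM at D0 and 1.46 and 51.2 TPM at W6. Col1a2, Col3a1, Lum and Dpt were each below 0.5 TPM in both W12 libraries. Fbln1 and Thy1, also of the list, moved in opposite directions from D0. Fbln1 averaged 32.1 TPM at W12 against 11.3 TPM at D0, and was 1.56 times higher in W12 replicate 2. Thy1 averaged 16.03 TPM at W12 against 41.6 TPM at D0, and was at 0.886 times its replicate 1 level in W12 replicate 2. The sum therefore does not show a shared direction of the list. The 8 mural and smooth muscle markers summed to 11.8 and 10.5 TPM at W12 (12.7 to 44.4 before), the 8 melanocyte markers to 14.1 and 12.4 (2.09 to 13.1 before) and the 6 Schwann markers to 2.89 and 5.33 (0.294 to 9.91 before). The 10 immune markers summed to 108 and 133 TPM (5.15 to 30.4 before), of which Cd74, an invariant chain of antigen presentation, gave 102 and 124 TPM, while Ptprc, which encodes CD45, was at 0.0184 and 0.327 TPM. The part of endothelial, fibroblast or immune RNA in the Vim and Zeb1 levels at W12 was not tested.

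Over the 10 libraries, the genes averaging 10 TPM or more whose log2 values followed a member most closely, of 8060 searched, were listed as a description. For Cdh1 they were Ppm1b, Galnt2 and Mtmr14, each with a Pearson r of 0.992. For Cdh3 they were Fbxo21 (0.994), Ltbp3 (0.993) and Pgap3 (0.991). For Vim they were Lrg1 (0.983), Cd14 (0.980) and Fabp4 (0.979), all of them highest in the 2 W12 libraries. Lrg1 was at 95.4 and 268 TPM at W12 and at or below 1.43 TPM before, Cd14, a monocyte receptor, at 185 and 443 TPM, and Fabp4, a fatty acid carrier of fat cells and capillary endothelium, at 166 and 256 TPM. These genes were chosen for following Vim over the same libraries, so their high W12 levels are set by that choice. Snai2 had no close match, with Ids at 0.849, Rbfox2 at 0.814 and Gm44389 at 0.764.

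The adherens junction partners comprise the nectins and the proteins that link cadherins and nectins to actin. Of 12 listed, 11 were tested. At W1, 3 rose and 0 fell: Afdn, the nectin-binding scaffold afadin, by 2.04 (SE 0.15, adjusted p = 0.000184), Nectin4 by 1.29 and Plekha7 by 1.18, beside 5.79% higher and 4.1% lower over all tested genes. Afdn alone of these passed without D0 replicate 2. Afdn was at 68.2 and 69.3 TPM at D0, 283 and 287 TPM at W1, 204 and 181 TPM at W2, 96.0 and 91.3 TPM at W6, and 56.4 and 72.1 TPM at W12. The W1 levels of Afdn stood far above D0, and those at W12 were back around it. At W1 the list's median change was 0.38, beside 0.09 over all tested genes, and the count of those that passed was 1 with median-ratio scaling, and 1 without D0 replicate 2, without either W1 library or without either W12 library.

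At W2, 2 partners rose, Plekha7 and Afdn (each by 1.47), and Nectin2 fell by 1.31, beside 9.06% higher and 6.64% lower over all tested genes. The fall of Nectin2 at W2 did not pass without D0 replicate 2 (-1.07, adjusted p = 0.0543). At W6, 2 rose, Afdn and Ctnnb1, the gene of beta-catenin (each by 0.44), and 3 fell, Nectin2 by 1.40, Ajuba by 0.76 and Vcl, the gene of vinculin, by 0.60, beside 18.3% higher and 14.1% lower over all tested genes. Of these 5 calls at W6, 1 was left without D0 replicate 2, that of Nectin2. At W12, 0 rose and 6 fell, and the median change was -0.77 beside -0.08 over all tested genes, where 17.9% were higher and 25.1% lower. The count without D0 replicate 2 was 5. Ajuba, a LIM-domain protein, fell by 2.18 (SE 0.23, adjusted p = 0.000219), from 140 and 235 TPM at D0 to 39.1 and 39.3 TPM, and Nectin2 by 1.92 (SE 0.25, adjusted p = 0.000628), from 77.7 and 109 TPM to 21.2 and 26.3 TPM. Nectin1 fell by 1.41. Of the 4 catenin genes, 2 fell at W12. Jup, the gene of plakoglobin, fell by 1.16 (adjusted p = 0.00947) and Ctnnd1, that of p120-catenin, by 0.88 (adjusted p = 0.00376). Leaving out D0 replicate 2, the change of Jup was -0.86 and did not pass (adjusted p = 0.0584), and that of Ctnnd1 was -0.66 (adjusted p = 0.0162). Ctnna1 changed by -0.04 (SE 0.13, adjusted p = 0.828) and Ctnnb1 by 0.16 (SE 0.13, adjusted p = 0.322).

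**Figure D4:**
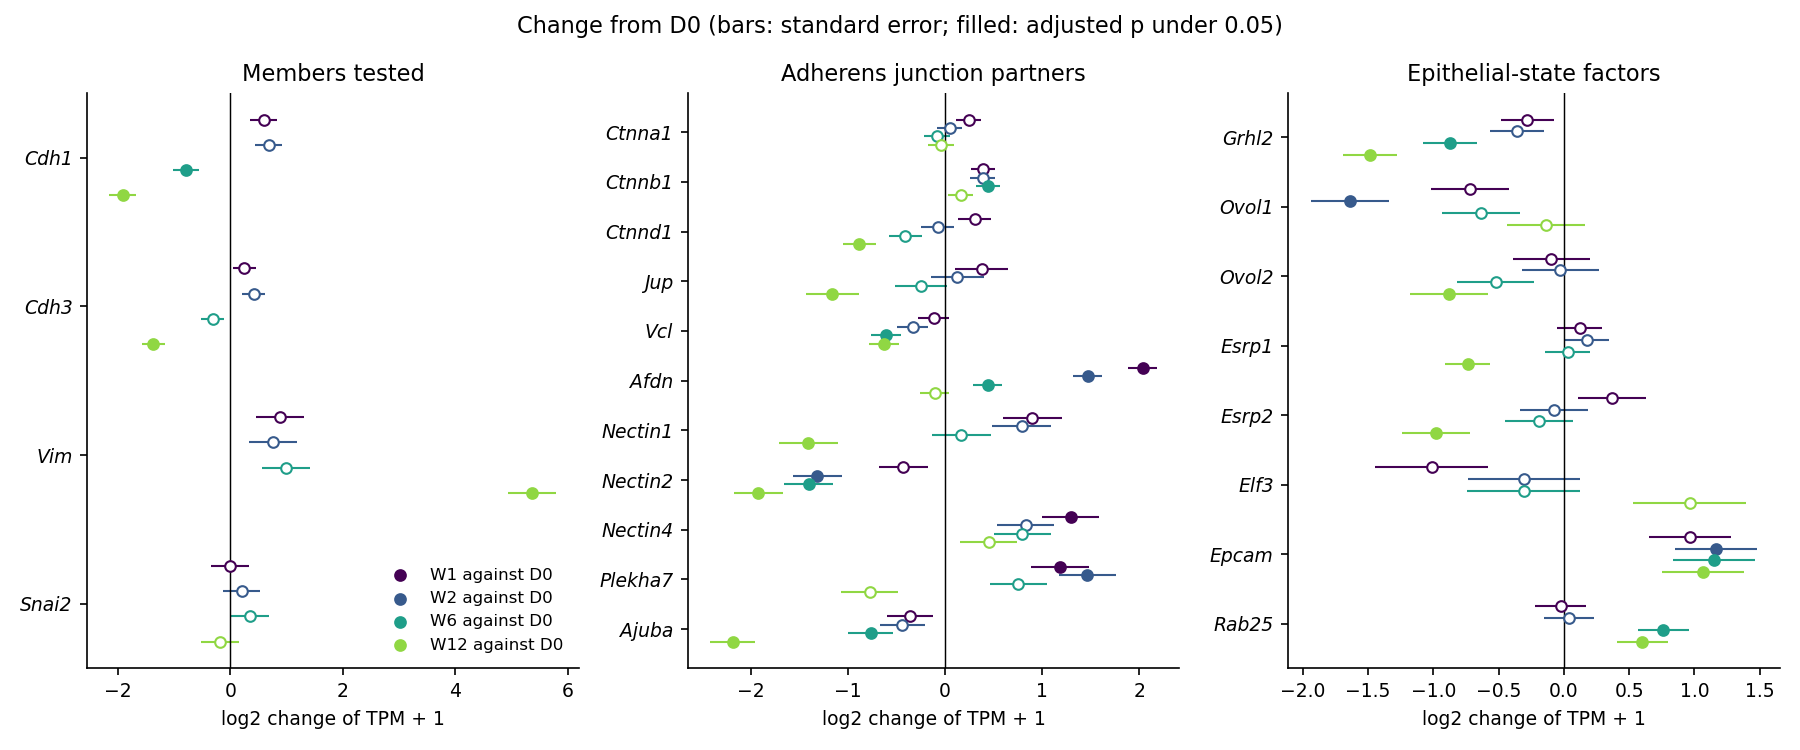
Change from D0 on the log2(TPM + 1) scale (horizontal, difference of means with bars of 1 standard error) at W1, W2, W6 and W12 for the 4 tested members, 11 adherens junction partners and 8 epithelial-state factors (vertical). Filled points have an adjusted p under 0.05: at W12 they include Vim at 5.37, Cdh1 at -1.92, Cdh3 at -1.37, Ajuba at -2.18 and Nectin2 at -1.92, and for Snai2 no point is filled.

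Of 11 other cadherins, 2 passed the filter on mean TPM. Cdh4, R-cadherin, was at 13.9 and 24.2 TPM at D0 and at or below 1.13 TPM in every later library, so that it passed the filter through D0 and had to be lower later. As a description, its log2 changes from D0 were -3.52, -3.55, -3.42 and -3.26 in order of time. Cdh13, a cadherin held by a lipid anchor, changed by 0.30 (adjusted p = 0.489) at W1 and 0.26 (adjusted p = 0.513) at W2, and fell by 1.44 (adjusted p = 0.00315) at W6 and by 1.43 (adjusted p = 0.00209) at W12. Without D0 replicate 2 the W12 change of Cdh13 was -1.09 (adjusted p = 0.00946).

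Among 8 other EMT transcription factors, 2 were tested, the E proteins Tcf3 and Tcf4. Tcf3 rose by 1.13 (adjusted p = 0.0365) and Tcf4 by 0.98 (adjusted p = 0.0278) at W2, and by 0.99 (adjusted p = 0.0349) and 0.72 (adjusted p = 0.0495) at W6. These counts of 2 at each time stood beside 15.7% of all tested genes at W2 and 32.4% at W6. At W12 none passed, beside 43%, and there limma gave 0 at an unadjusted p under 0.05 and the fit of all genes, with its 13.6% passing, gave 2 of the 8, both higher. These were Snai3, a Snail-family factor, which rose by 1.57 (SE 0.21, adjusted p = 0.00509), and Foxc2, a forkhead factor, which rose by 0.98 (SE 0.20, adjusted p = 0.0206). Snai3 was at 0.0125 and 0 TPM at D0 and 1.69 and 2.33 TPM at W12, and Foxc2 at 0.0608 and 0.0551 TPM and then 0.667 and 1.62 TPM. Both were higher in W12 replicate 2, as the endothelial markers were, and the part of endothelial RNA in these levels was not tested. Without D0 replicate 2 as well, 1 of the 8 passed. Tcf3 was at 83.0 and 89.4 TPM at D0, 190.1 and 190.3 TPM at W2, 252 and 118 TPM at W6, and 55.8 and 72.3 TPM at W12. Its W12 libraries were below those of D0. With median-ratio scaling 1 of the 2 passed at W2 and 0 at W6, and without D0 replicate 2 none passed at either time.

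All 8 epithelial-state factors, which hold cells in an epithelial programme, were tested. At W1, 0 passed, beside 9.89% of all tested genes. At an unadjusted p under 0.05, which at least that share of all tested genes passed, limma gave 3. The W1 changes went both ways, with Epcam at 0.97, Elf3 at -1.01 and Ovol1 at -0.72. At W2, where 15.7% of all tested genes passed, Epcam, an epithelial adhesion protein, rose by 1.17 (adjusted p = 0.0388) and Ovol1, a zinc-finger factor of epidermal differentiation, fell by 1.64 (adjusted p = 0.00811). At W6, where 32.4% passed, Epcam rose by 1.15, Rab25 rose by 0.76 and Grhl2 fell by 0.87. Leaving out D0 replicate 2, Rab25 (0.77, adjusted p = 0.0624) and Grhl2 (-0.56, adjusted p = 0.0536) did not pass at W6, while Ovol2 passed there (-0.97, adjusted p = 0.0359) and Epcam passed at W1 (1.39, adjusted p = 0.0347). At W12, 2 rose, Epcam by 1.07 (adjusted p = 0.0246) and Rab25 by 0.60 (adjusted p = 0.0347), and 4 fell, Grhl2, a grainyhead factor, by 1.49 (adjusted p = 0.000811), the splicing regulators Esrp2 by 0.98 and Esrp1 by 0.74, and Ovol2 by 0.88. Over all tested genes 17.9% were higher and 25.1% lower at W12. The W12 calls of Rab25 (adjusted p = 0.0937) and Esrp2 (adjusted p = 0.0856) were lost without D0 replicate 2. Epcam was at 174 and 313 TPM at D0 and 438 and 545 TPM at W12, opposite in direction to Cdh1. The counts at W12 moved from 6 to 3 with quantile normalization, to 3 without D0 replicate 1, to 4 without D0 replicate 2, to 1 without W12 replicate 1 and to 2 without W12 replicate 2.

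Of 12 mesenchymal effectors, 7 were tested, and 3 of them passed at W1, 5 passed at W2, and 4 passed at each of W6 and W12, beside 9.89%, 15.7%, 32.4% and 43% of all tested genes. Without D0 replicate 2 the counts were 1, 4, 2 and 3, and at W1 none passed without W1 replicate 2. S100a4, a calcium-binding protein, went from 25.1 and 13.2 TPM at D0 to 44.0 and 41.2 TPM at W1, 64.5 and 77.1 TPM at W2, 120 and 146 TPM at W6, and 570 and 363 TPM at W12. Its change was 1.18 (adjusted p = 0.0424), 1.89 (adjusted p = 0.00428), 2.79 (adjusted p = 0.000435) and 4.57 (SE 0.30, adjusted p = 2.16e-05) in that order, and the rise at W1 did not pass without D0 replicate 2 (0.74, adjusted p = 0.146). Tnc, the matrix protein tenascin C, rose by 1.55 (adjusted p = 0.00128) at W6 and 2.10 (adjusted p = 0.000172) at W12. Acta2, smooth muscle actin, rose by 1.84, 1.97, 1.55 and 1.23 at the 4 times in order, but leaving out D0 replicate 2 it did not pass at W6 (1.13, adjusted p = 0.0521) or W12 (0.80, adjusted p = 0.105). Itga5, the fibronectin receptor subunit, rose by 1.16 (adjusted p = 0.0273) at W12, where it was at 6.37 and 12.5 TPM. Of the 4 effectors called higher at W12, Itga5 (1.97 times) and Tnc (1.46 times) were higher in W12 replicate 2. Both lay within the range of the endothelial markers, as did the basal keratinocyte marker Itgb4 (1.62 times). S100a4 (0.637 times) and Acta2 (0.656 times) were lower in replicate 2. The part of endothelial RNA in the changes of these 4 effectors was not tested. Sparc, a matrix-binding protein, fell by 2.70 at W2 and 2.05 at W6, while Mmp2, a matrix protease, rose by 0.95 at W2. Of these, only the W2 fall of Sparc passed without D0 replicate 2 (-3.30, adjusted p = 0.0351). Col1a1, a main collagen of fibroblasts, did not pass 0.481 TPM in any library.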

How the data were processed

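RNA of sorted EpdSCs was measured in 10 libraries, 2 per timepoint, mapped to groups by their labels and column names. The authors trimmed reads, quantified transcripts with Salmon (1.4.0) against GRCm38 with the transgene added, summarised them to genes with Tximport (1.12.3) and deposited TPM, scaled to length and to 1000000 per library. TPM keep no depth, so no counting interval could be given, and a low value is imprecise to an unknown extent. The number of libraries also limits precision, and the labels do not give whether replicates share a litter or sort.

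Here log2(TPM + 1) of 13110 genes averaging 1 TPM or more was fitted with limma (3.58.1, R 4.3.3) as 5 timepoint means, with moderated variances that follow the mean, and p-values were adjusted by Benjamini-Hochberg over all genes tested. The study used a count model, and a log-scale fit was used because the table holds TPM. The code was tested on simulated data. Alternatives were a pseudocount of 0.1, no filter beyond a TPM above 0 (with and without D0 replicate 2), a stricter filter at 5 TPM, quantile normalization, median-ratio scaling, no variance trend, only the 4 libraries compared, a replicate block and leaving out each library. The W12 replicates were compared without a test.

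Named genes were all 10 members, up to 3 genes per list and comparison with D0 among those that passed, by size of change, 3 genes of like pattern per tested member, and markers that moved with a member. The other list genes and counts named were chosen after their values were seen. The members and lists were chosen with earlier results of these data known. The values of 1 listed gene are not reported here. The 4 embryonic placode libraries were not used here, since their table holds fold changes and p-values of the authors' own comparison. Promoter windows were from RefSeq, and positions from the GENCODE annotation of GRCm38.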

Additional observations from a re-analysis of the deposited data

How the results depend on the processing

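At W12 against D0, Cdh1 (-2.12 to -1.71), Cdh3 (-1.61 to -1.14) and Vim (4.90 to 6.34) kept their direction and passed under every alternative run, with highest adjusted p-values of 0.0301, 0.0376 and 0.0103. The count of members passing at W6 against D0 was 0 with only the 4 libraries compared. It was also 0 in the fit of all genes with a TPM above 0 without D0 replicate 2, added after seeing the data. At W6 against W2 it was 1 with all genes with a TPM above 0, with no variance trend and with the replicate block. At W12 against W6 it was 1 with only the 4 libraries. The count of members past an absolute log2 difference of 1 between the W12 replicates was 4 with a pseudocount of 0.1. Leaving out each library gave 0 to 1 at W2, 0 to 2 at W6, 3 to 4 at W12, 0 to 2 at W6 against W2 and 1 to 3 at W12 against W6. It also turned the sign of changes that were not called: Snai2 ranged from -0.59 to 0.57 at W1, -0.38 to 0.78 at W2, -0.24 to 0.92 at W6, -0.76 to 0.40 at W12 and -0.079 to 0.50 at W2 against W1, Cdh1 from -0.031 to 0.21 and Vim from -0.52 to 0.27 at W2 against W1, and Vim from -0.26 to 0.74 at W6 against W2. Cdh1 at W12 against W6 had an adjusted p of 0.0528 with median-ratio scaling, which moved the median of all genes by 0.14. The cause was not tested.

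The labels do not say whether the replicate numbers pair the samples. The correlation of same-numbered deviations was -0.129 to 0.182 over timepoint pairs, which cannot show whether such samples share a litter or sort. With the replicate block the genes passing went from 2137 to 1396 at W6 against W2, and the block changed no other call of a tested member. With crossed numbers, added after seeing the data, 1225 genes passed at W1, 4291 at W6 and 2666 at W12 against W6, against 1296, 4251 and 2642 without a block.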
